A study of Mus musculus with 5 samples.

Results

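The genes described here are 34 components of transforming growth factor beta (TGF-beta) and bone morphogenetic protein (BMP) signalling: 9 ligand genes, 8 receptor genes, 7 Smad genes, 6 target genes with the Id family among them, and 4 genes for extracellular regulators. They were chosen by name, through the platform annotation of a probe, the current symbol of its accession or the name in the array tables. All 34 were on the array, with 56 of 41174 non-control probes, among 20281 named genes. Of the 34, 30 had a probe above background and were tested, 24 of them with at least 1 channel above background on all 5 arrays and 21 with both channels above it on all 5.

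TGF-beta, activin and BMP ligands are secreted dimers that bring together type I and type II serine/threonine kinase receptors. The type I receptor phosphorylates receptor-regulated Smads, Smad2 and Smad3 for TGF-beta and activin, Smad1 and Smad5 for BMPs, which enter the nucleus with Smad4. The Id genes, which encode inhibitors of basic helix-loop-helix transcription factors, are classic BMP targets, and Smad6 and Smad7 are induced as feedback inhibitors. In the kidney, TGF-beta is best known for driving fibrosis, and BMP7 for nephron progenitor survival and for opposing fibrosis.

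Both populations came from papillae, the inner tips of the kidney medulla, of mice of the strain given as H2B-GFP, aged 2 to 3 months. Doxycycline was given during embryonic life to load nuclei with a histone-GFP fusion, and a chase to adulthood followed. Live cells were then sorted into those that still carried the label (GFP+, label-retaining) and those that did not (GFP-). The groups share transgene, pulse and tissue and were told apart by retained GFP. The sources used here do not give the promoter that drives the transgene or say whether animals were pooled. Each of 5 biological replicates was 1 array, with label-retaining cells in the Cy5 channel, unlabelled cells in Cy3 and no dye swap in the labels. The ratio was taken as the second over the first deposited intensity, so GFP+ over GFP- is the likely direction, and every sign below turns if it is the opposite. In a bulk sort, fewer cells of a type and less RNA per cell cannot be told apart.

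The labelled tissue showed its markers. All 6 collecting duct principal cell markers and all 5 thin limb markers passed the background filter, as did 4 of 5 intercalated cell, 6 of 6 papillary surface and urothelial, 5 of 5 fibroblast, 4 of 5 pericyte, 3 of 5 endothelial and 5 of 5 leukocyte markers, and of all these Pdgfrb alone was above background on no array. Replicate 1 stood apart. Its log2 ratios correlated across genes at -0.156 to -0.0598 with those of the other arrays, which correlated at 0.0523 to 0.201 with each other, and its principal cell marker median was -2.96 against 0.43 to 4.71 on replicates 2 to 5. It kept the direction of its labels, and several of the results that rest on it are given with and without it.

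No member differed between label-retaining and other cells by the test used. In limma, 0 of 30 members and 0 of 17659 genes (0%) reached an adjusted p of 0.05, where 3 members and 882 genes (4.99%; 3.21% above 0, 1.79% below) had an unadjusted p under 0.05. The 3 were Tgfbr2, Nog and Tgfbi, each with a mean below 0 (adjusted p 0.827, limma). A mean of at least 2-fold was reached by 13 of 30 members, 6 above 0 and 7 below, against 25.8% of all genes (13.3% above, 12.5% below). Of the 6 above 0, Smad3 and Grem1 passed the background filter only through the GFP+ channel, where their means were higher. Another of the 6, Id1, was below background in both channels on replicates 2 and 5. The count is therefore a description. The replicate spread was large: the median SD over arrays was 1.91 among members and 1.45 among all genes. The median of the 30 member means was -0.21, beside -0.0034 for all genes, and 13 of 30 means lay above 0, where 49.8% of all genes did. With all tested probes of a gene averaged, the member median was 0.21, on the other side of 0.

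**Figure D1:**
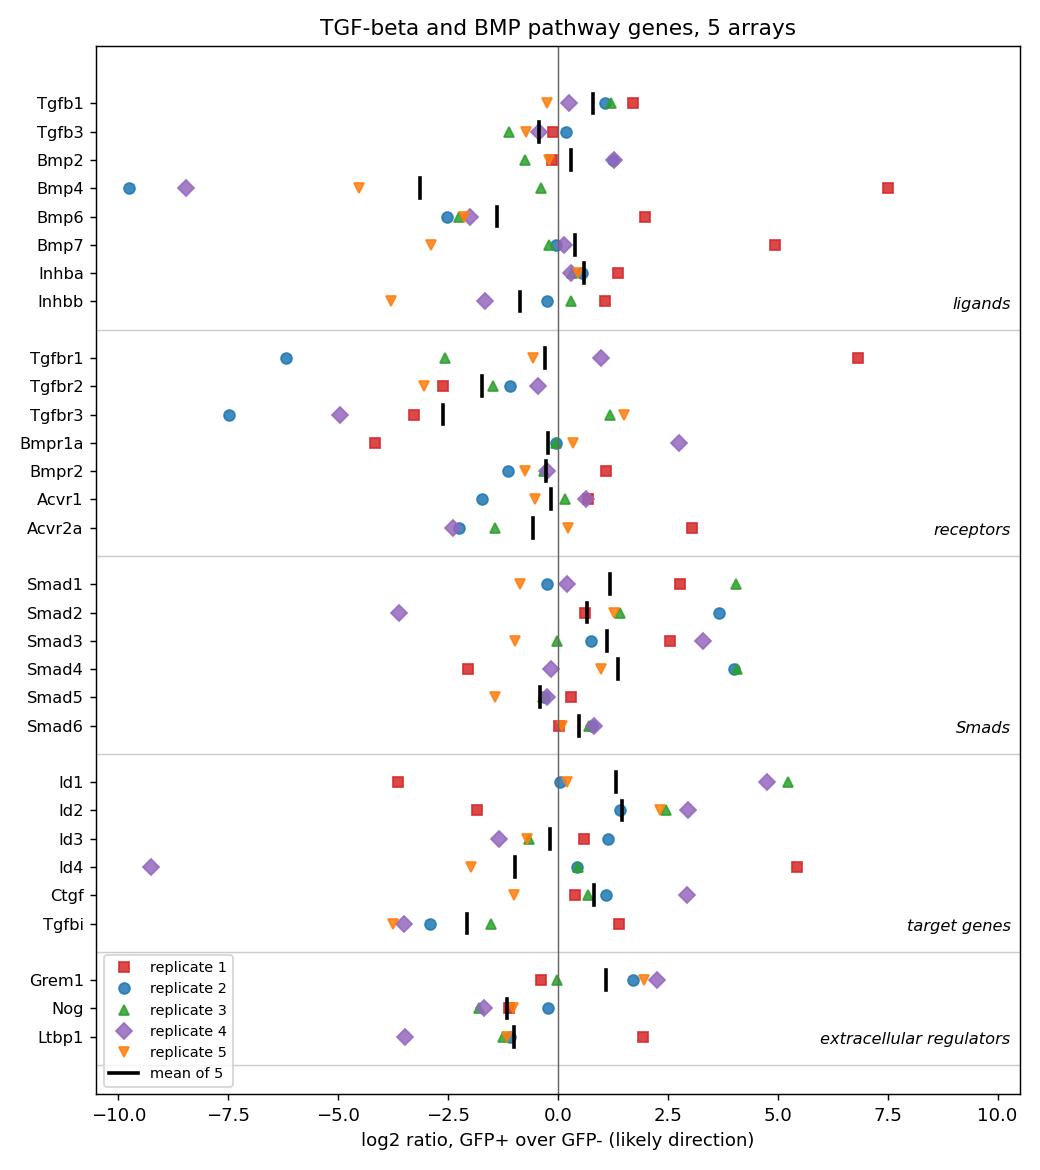
Log2 ratio of GFP+ over GFP- (x axis) of the 30 tested genes on each of 5 arrays, grouped by role; symbols are arrays and black bars the mean of 5. The symbols of most genes lie on both sides of 0, Bmp4 from -9.77 to 7.51, while those of Inhba, Smad6, Tgfbr2 and Nog each stay on one side.

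A single sign on all 5 arrays was found for 4 of 30 members, 2 above 0 (Inhba and Smad6) and 2 below (Tgfbr2 and Nog). Among all genes with 5 values the share was 7.58% for either side, 4.67% above and 2.91% below. Inhba passed the background filter through the GFP+ channel alone, where it was higher, so its sign is a description with no test. For the other 3 the exact sign-flip permutation p (two-sided) was 0.0625, the smallest that 5 arrays can give. Any gene of one sign on all 5 arrays has that p by construction, so it adds nothing to the count of signs. A single sign on all 5 arrays is lost by construction if the sign of replicate 1 is turned. Smad6 encodes an inhibitory Smad that acts mainly on BMP signalling, Inhba the beta A subunit of activin A, Tgfbr2 the type II TGF-beta receptor and Nog the secreted BMP antagonist noggin.

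Inhba had log2 ratios of 1.37, 0.54, 0.31, 0.28 and 0.45 on replicates 1 to 5. The mean was 0.59 ± 0.45 (SD, n = 5), with replicate 1 high. It was 1.19 in the deposited ratios and 0.04 with the sign of replicate 1 turned. Its level was low: the GFP+ channel stood at 3.16 to 10.7 times the negative control probe, above the limit of 3 on all 5 arrays, and the GFP- channel passed that limit on replicate 1 alone. On replicates 2 to 5 the ratio was therefore taken over a GFP- signal below the background limit.

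Smad6 had 0.03, 0.78, 0.71, 0.82 and 0.09 on replicates 1 to 5, with a mean of 0.49 ± 0.39 (SD, n = 5; adjusted p 0.832, limma). Replicates 2 to 4 were alike and replicates 1 and 5 lay close to 0. The single sign rested on the offset and the normalization: replicate 1 had -0.05 with an offset of 200, -0.02 with a loess span of 0.7, -0.38 with median centring and -0.45 in the deposited ratios. Both channels were above background on all 5 arrays.

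Tgfbr2 had -2.61, -1.08, -1.48, -0.46 and -3.04 on replicates 1 to 5. Its mean of -1.74 ± 1.07 (SD, n = 5) had a 95% confidence interval of -3.01 to -0.47 (limma p 0.0146 unadjusted, 0.827 adjusted). The GFP- channel ranged from 49.1 to 499 times the negative control, and the GFP+ channel from 30.3 to 84.0 times. A second tested probe of Tgfbr2 went the other way, with a mean of 0.97 and 3.56 on replicate 3. With both probes averaged the mean was -0.39, and the single sign was lost.

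Nog had -1.11, -0.23, -1.80, -1.68 and -1.03 on replicates 1 to 5, below 0 throughout, with replicate 2 nearest to it. The mean was -1.17 ± 0.62 (SD, n = 5), with a 95% confidence interval of -2.22 to -0.12 (limma p 0.0341 unadjusted, 0.827 adjusted). Noggin is measured by 1 probe, above background in both channels of all 5 arrays. Its values stayed below 0 on every array with the other offsets, the wider loess span, median centring, scaling between arrays and the deposited ratios, where replicate 2 had -0.03.

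**Figure D2:**
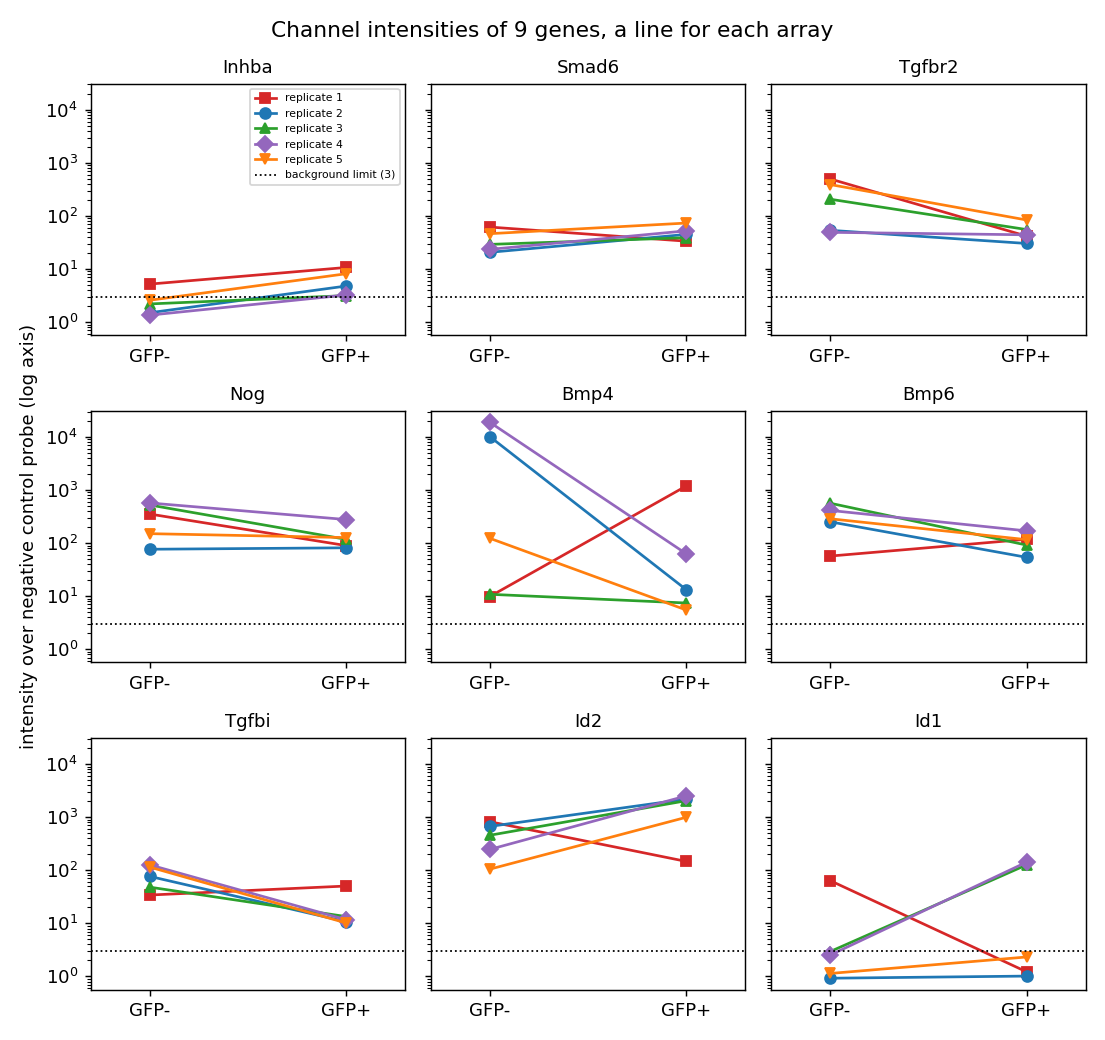
Intensity over that of the negative control probe (log axis) in the GFP- and the GFP+ channel for 9 genes, a line for each array, with the background limit of 3 dotted. Bmp4 runs from 10160 down to 13.2 on replicate 2 and from 9.86 up to 1192 on replicate 1; Id1 is below the limit in both channels on replicates 2 and 5.

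Promoters were matched in RefSeq (GRCm38.p6) for 3 of these 4 genes, and are shown because these members alone held one sign on all arrays. Each runs 5′ to 3′ over 300 bases, 250 before and 50 after the start. Inhba lies at chr13:16011601-16011900 (plus strand), Tgfbr2 at chr9:116175314-116175613 (minus strand) and Smad6 at chr9:64022010-64022309 (minus strand). Capitals mark the Smad-binding letters CAGAC, the BMP-type GC element GGCGCC and the palindromic Smad-binding element GTCTAGAC, each searched on both strands. The palindrome does not contain CAGAC, and it was added after the sequences had been read.
Inhba: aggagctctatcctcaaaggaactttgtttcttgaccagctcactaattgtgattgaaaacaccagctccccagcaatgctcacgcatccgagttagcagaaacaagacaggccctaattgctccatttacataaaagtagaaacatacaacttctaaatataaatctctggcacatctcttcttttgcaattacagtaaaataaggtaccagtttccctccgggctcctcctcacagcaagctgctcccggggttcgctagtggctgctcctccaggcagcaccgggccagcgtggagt
Tgfbr2: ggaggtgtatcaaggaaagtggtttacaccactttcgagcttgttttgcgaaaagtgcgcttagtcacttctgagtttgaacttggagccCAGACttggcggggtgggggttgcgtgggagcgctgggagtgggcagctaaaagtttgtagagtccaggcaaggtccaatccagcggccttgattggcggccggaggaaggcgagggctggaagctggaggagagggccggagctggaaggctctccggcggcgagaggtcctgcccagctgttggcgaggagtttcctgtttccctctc
Smad6: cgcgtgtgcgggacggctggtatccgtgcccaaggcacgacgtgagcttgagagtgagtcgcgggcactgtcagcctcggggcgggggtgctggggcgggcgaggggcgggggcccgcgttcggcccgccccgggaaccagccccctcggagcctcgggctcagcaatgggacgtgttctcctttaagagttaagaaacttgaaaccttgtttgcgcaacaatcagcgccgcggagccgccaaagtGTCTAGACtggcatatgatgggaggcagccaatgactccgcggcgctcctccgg
The Tgfbr2 promoter held CAGAC at 1 place, and 49.7% of 27025 promoters of the same length held it. Smad6 held GTCTAGAC at 1 place, starting at base 247 of those shown, and 0.2% of promoters held it. Since that motif was added after the sequences had been read, the share is no measure of how unusual the Smad6 site is. GGCGCC, present in 12.0% of promoters, was in none of the 3, and Inhba held none of the 3 motifs.

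Among the ligands, 8 of 9 genes were tested. Tgfb2 was above background on no array in either channel. The ligand medians on replicates 1 to 5 were 1.54, 0.07, -0.30, -0.14 and -1.44, and 4 of 8 means lay above 0. Tgfb1, the ligand best known in fibrosis and immune regulation, had 1.72, 1.07, 1.22, 0.25 and -0.24, with a mean of 0.80 ± 0.79 (SD, n = 5; adjusted p 0.827, limma). It was higher in GFP+ cells on 4 of 5 arrays. Tgfb3, a ligand of palate and epithelial development, had -0.11, 0.17, -1.12, -0.42 and -0.73 (mean -0.44 ± 0.51, SD, n = 5).

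The widest spread of any member was that of Bmp4, which encodes a BMP ligand of early ureteric and stromal development. Its log2 ratios were 7.51, -9.77, -0.38, -8.47 and -4.54 on replicates 1 to 5, and both channels were above background on every array. Replicate 1 was far above 0 and the other 4 were below it. The mean was -3.13 ± 6.99 (SD, n = 5; adjusted p 0.827, limma), and without replicate 1 it was -5.79 ± 4.23 (SD, n = 4; adjusted p 0.349, limma). In the GFP- channel the probe stood at 10160 and 18920 times the negative control on replicates 2 and 4, and at 9.86 to 123 times on the others. Bmp4 is measured by 1 probe, so no second probe checks this range.

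Bmp6, a BMP ligand that also sets hepcidin and iron balance, had 1.98, -2.53, -2.26, -2.01 and -2.14. Replicates 2 to 5 were close together, at -2.23 ± 0.22 (SD, n = 4), and replicate 1 lay on the other side of 0. The mean over all 5 arrays was -1.39 ± 1.89 (SD, n = 5; adjusted p 0.827, limma). Without replicate 1 limma gave p 0.00176 unadjusted and 0.322 adjusted. Its second probe differed, with 0.90, 1.78, -0.30, 0.45 and -0.01 on replicates 1 to 5.

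Bmp7, a ligand made by collecting duct and nephron epithelium, had 4.93, -0.03, -0.21, 0.13 and -2.88, with a mean of 0.39 ± 2.83 (SD, n = 5), and -0.75 without replicate 1. With this probe, values near 0 were thus found on replicates 2 to 4. The second tested Bmp7 probe had 3.94, -0.91, 0.73, 0.50 and -1.11 on replicates 1 to 5. Bmp2 had -0.13, 1.25, -0.74, 1.28 and -0.21, and Inhbb, the activin beta B subunit gene, had 1.08, -0.26, 0.31, -1.66 and -3.80. Both lay on either side of 0, with means of 0.29 ± 0.92 and -0.87 ± 1.92 (SD, n = 5). A second Inhbb probe had a mean of 0.22.

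All 7 tested receptor genes had means below 0, from -2.61 (Tgfbr3) to -0.15 (Acvr1), where 49.8% of all gene means lay above 0. One of them, Acvr2a, passed the background filter only through the GFP- channel, where its mean was higher, so its sign is a description. The means of Tgfbr1, Bmpr1a and Acvr1 lay above 0 under at least 1 other setting or without 1 array. The sign also depended on the probe: other tested probes of Tgfbr1, Tgfbr2 and Bmpr1a had means of 0.05, 0.97 and 0.80. Those of Bmpr2 had 0.26 and -0.30. Apart from Tgfbr2, none of the 7 genes had one sign on all 5 arrays, and the receptor medians of replicates 1 to 5 were 0.68, -1.72, -0.31, -0.25 and -0.52. Bmpr1b, a type I BMP receptor, was above background on 2 arrays in each channel and was not tested. Tgfbr3 encodes betaglycan, a co-receptor that presents TGF-beta2 and binds inhibin. It had -3.28, -7.49, 1.19, -4.95 and 1.50 (mean -2.61 ± 3.91, SD, n = 5; adjusted p 0.827, limma), well below 0 on replicates 1, 2 and 4 and above it on the others. Tgfbr1, the type I TGF-beta receptor, had 6.82, -6.19, -2.57, 0.98 and -0.57, with a mean of -0.30 ± 4.80 (SD, n = 5), and the mean lay above 0 in the deposited ratios and without replicate 2 or replicate 3.

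The other tested receptors of BMPs and activins spread less than Tgfbr1 and Tgfbr3, and Acvr2a and Bmpr1a were not above background on every array. Bmpr2, the type II BMP receptor, had 1.08, -1.15, -0.31, -0.25 and -0.75 (mean -0.28 ± 0.84, SD, n = 5). Acvr1, a type I receptor also called ALK2, had 0.68, -1.72, 0.16, 0.63 and -0.52 (mean -0.15 ± 1.00, SD, n = 5). Acvr2a, an activin type II receptor, had 3.06, -2.26, -1.44, -2.38 and 0.22 (mean -0.56 ± 2.27, SD, n = 5), and GFP+ cells passed background on 1 array, GFP- cells on 3. It thus passed the filter only through the GFP- channel, where its mean was higher, so its values are a description. The other Acvr2a probes were above background on no array. Bmpr1a, a type I BMP receptor, had -4.16 on replicate 1, 2.75 on replicate 4 and -0.04 to 0.34 on the others, and passed background on 3 arrays for GFP+ and 2 for GFP-. Its mean was -0.23 ± 2.49 (SD, n = 5), and 0.75 without replicate 1. The GFP- channel stood at 414 times the negative control on replicate 1, and the GFP+ channel at 576 times on replicate 4. Without replicate 1 the receptor median moved from -0.30 to -1.47.

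Of the Smads, 6 of 7 were tested, and 5 of 6 means lay above 0, with a median of 0.89. Without replicate 3 that median was 0.48 and without replicate 2 it was 0.56. The medians of replicates 1 to 5 were 0.45, 0.76, 1.06, 0.02 and -0.39. Smad7, the inhibitor of TGF-beta signalling, was above background on no array. Smad1, which transmits BMP signals, had 2.77, -0.25, 4.05, 0.21 and -0.86 (mean 1.18 ± 2.12, SD, n = 5). A second Smad1 probe was above background on no array. Smad5, the close relative of Smad1, had 0.29, -0.32, -0.33, -0.26 and -1.44 (mean -0.41 ± 0.63, SD, n = 5). Both means were less than 1 SD from 0. The second tested Smad5 probe had a mean of 0.73, and with both probes averaged Smad5 had 0.16.

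The TGF-beta branch and the common partner were as variable. Smad2 had 0.61, 3.66, 1.41, -3.61 and 1.28, above 0 on 4 of 5 arrays (mean 0.67 ± 2.65, SD, n = 5), and its mean was -0.08 without replicate 2. Smad3 had 2.54, 0.75, -0.03, 3.29 and -0.97 (mean 1.12 ± 1.77, SD, n = 5), and GFP- cells passed background on 2 arrays. It thus passed the filter only through the GFP+ channel, where its mean was higher, so its values are a description. Smad4, which joins both branches, had -2.05, 4.01, 4.07, -0.16 and 0.98, with a mean of 1.37 ± 2.67 (SD, n = 5; adjusted p 0.827, limma). Without replicate 1 it was 2.23 ± 2.15 (SD, n = 4; adjusted p 0.437, limma), without replicate 2 it was 0.71 and without replicate 3 it was 0.70. Both Smad4 probes had means above 0, at 1.37 and 0.46.

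The target genes had medians of 0.50, 0.76, 0.57, 0.80 and -0.86 on replicates 1 to 5. Replicate 5 was the one array below 0. Of the 6 means, 3 lay above 0 and 3 below, and 0 of 6 kept one sign throughout.

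**Figure D3:**
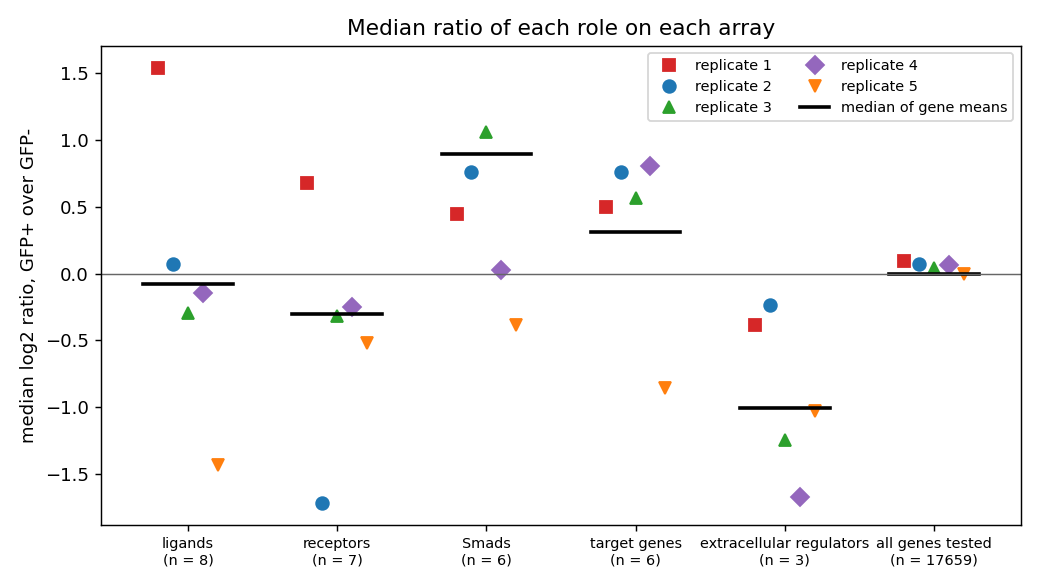
Median log2 ratio (y axis) over the tested genes of each role on each of 5 arrays, with all 17659 genes beside them; bars are the median of the gene means. The extracellular regulators are below 0 on every array, from -1.68 to -0.23, over 3 genes. On replicate 1 their median is the value of Grem1, which was below background in both channels there. The values beside it on that array are -1.11 for Nog and 1.94 for Ltbp1. The other roles lie on both sides of 0, while the medians of all genes stay between -0.0046 and 0.0924.

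Id2 had -1.84, 1.41, 2.45, 2.95 and 2.33 on replicates 1 to 5. Its mean was 1.46 ± 1.93 (SD, n = 5; adjusted p 0.827, limma), and without replicate 1 it was 2.29 ± 0.64 (SD, n = 4; limma p 0.00314 unadjusted, 0.322 adjusted). Replicate 1 was below 0 and the other 4 were above it. These values come from a clone probe that is linked to Id2 by the platform annotation alone. The brighter of 2 probes with the Id2 RefSeq accession had 7.47, 0.63, 0.54, 0.37 and 0.69, above 0 on all 5 arrays. Its GFP- channel was above background on 2 arrays and its GFP+ channel on 4. It thus passed the filter only through the GFP+ channel, where it was higher, so its sign is a description. The other of these 2 probes had -0.02, 0.05, 0.02, -1.57 and 0.26.

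Id1, the Id gene most often read as a BMP response, had -3.63, 0.04, 5.22, 4.76 and 0.21 (mean 1.32 ± 3.69, SD, n = 5; adjusted p 0.851, limma). The GFP+ channel was above background on replicates 3 and 4 and the GFP- channel on replicate 1, so the values of replicates 2 and 5 compare 2 dim channels. A second, dimmer Id1 probe, below the filter, had 5.43 and 3.95 on replicates 3 and 4 and 0.08 on replicate 1. Id3, a relative with similar targets, was above background in both channels of all arrays and had 0.60, 1.14, -0.65, -1.33 and -0.70 (mean -0.19 ± 1.02, SD, n = 5). Id4 had 5.45, 0.43, 0.46, -9.26 and -1.99 (mean -0.98 ± 5.36, SD, n = 5), and its second probe had a mean of 1.51.

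Tgfbi, a TGF-beta-induced extracellular matrix protein gene, had 1.38, -2.92, -1.52, -3.51 and -3.75. Replicates 2 to 5 were below 0 and replicate 1 was above it. The mean of -2.06 ± 2.11 (SD, n = 5) had a 95% confidence interval of -4.02 to -0.10 (limma p 0.0416 unadjusted, 0.827 adjusted). Without replicate 1 it was -2.92 ± 1.00 (SD, n = 4; limma p 0.00223 unadjusted, 0.322 adjusted). On those 4 arrays the GFP+ channel stood at 10.2 to 13.4 times the negative control and the GFP- channel at 48.2 to 127 times. On replicate 1 the GFP+ channel stood at 50.48 times and the GFP- channel at 34.15 times, so the ranges of the channels overlapped over all 5 arrays. Ctgf, now named Ccn2, a matricellular target of TGF-beta and YAP, had 0.40, 1.09, 0.68, 2.94 and -1.01 (mean 0.82 ± 1.42, SD, n = 5). It was above 0 on 4 of 5 arrays, where Tgfbi was below 0 on 4 of 5.

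Of the extracellular regulators, Fst, which encodes the activin-binding protein follistatin, was above background on no array. Beside Nog, Ltbp1, which encodes a latent TGF-beta binding protein that anchors the ligand in matrix, had 1.94, -1.09, -1.25, -3.48 and -1.17. Its mean was -1.01 ± 1.93 (SD, n = 5), and without replicate 1 it was -1.75 ± 1.16 (SD, n = 4; unadjusted p 0.0266, adjusted p 0.390, limma). The second Ltbp1 probe had a mean of 0.29. Grem1, which encodes the BMP antagonist gremlin, had -0.38, 1.70, -0.03, 2.26 and 1.96 (mean 1.10 ± 1.22, SD, n = 5), and GFP+ cells passed background on 3 arrays, GFP- cells on 2. Grem1 thus passed the filter only through the GFP+ channel, where it was higher, so its values are a description with no test. Both Grem1 channels were below background on replicates 1 and 3.

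Replicate 1 often went against the other arrays, in members as in all genes. On replicates 2 to 5, 12 of 30 members had one sign, 4 above 0 and 8 below, against 25.5% of all genes (13% above, 12.5% below). On replicate 1, 8 of these 12 took the opposite sign, where 70.3% of such genes did. Without replicate 1, 8 of 30 members had an unadjusted p under 0.05, 2 above 0 and 6 below, against 11.5% of all genes (5.28% above, 6.23% below), and 0 of 30 passed an adjusted p of 0.05 in limma, against 0%. The 2 above 0 were Id2 and Grem1, and Grem1 passed the background filter only through the GFP+ channel. The lowest adjusted p among members without replicate 1 was 0.322 (limma), that of Bmp6, Id2 and Tgfbi. Marker medians also moved on that array: principal cell, intercalated cell and thin limb markers had -2.96, -2.10 and -1.79 on replicate 1 and 0.43 to 4.71, -0.28 to 3.13 and 1.71 to 3.04 on the others. Fibroblast markers, 5 of 5 tested, had 0.27 as their median there and -1.17 to -0.15 elsewhere, and their summed intensities ran from 2720 to 58500 for GFP- and from 2570 to 6090 for GFP+ cells. The part of these cell types in the members' values was not tested.

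Different probes of a gene often went apart. Of 12 members with more than 1 tested probe, the probe means had the same sign for 2 (Bmp7 and Smad4), and for the other 10 at least 1 probe had the opposite sign.

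**Figure D4:**
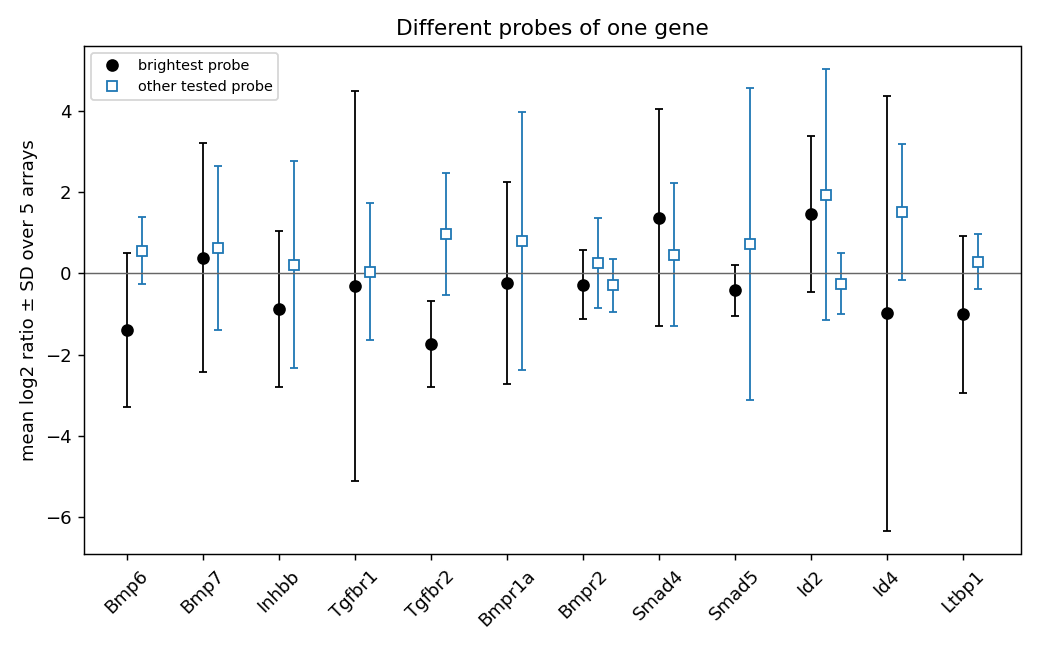
Mean log2 ratio ± SD over 5 arrays for every tested probe of the 12 members with more than 1; filled circles are the brightest probe, which stood for the gene, and open squares the others. The Tgfbr2 probes have means of -1.74 and 0.97, and those of Bmp6 -1.39 and 0.56.

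Of 103 further genes of the pathway, 102 were on the array and 90 were tested. Limma called 0 of 90 in either direction, and 3 of 90 had an unadjusted p under 0.05, where 4.99% of all genes did. The sign was shared by all 5 arrays for 5 genes, 3 above 0 and 2 below, which is 5.56% beside 7.58% of all genes. The median of the 90 means was -0.14, with 36 above 0, where 49.8% of all gene means lay above 0.

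The 5 were Lefty1, Ppm1a and Klf10 above 0 and Tgif2 and Sost below. Lefty1, which encodes a secreted antagonist of Nodal, had 0.22, 0.40, 1.36, 1.76 and 1.37 (mean 1.02 ± 0.67, SD, n = 5). Ppm1a encodes a phosphatase reported to act on phosphorylated Smad2 and Smad3, and it had 5.80, 3.04, 4.11, 0.57 and 0.45, with 2 of 2 probe means above 0. Klf10, an early TGF-beta response gene, had a mean of 0.53 ± 0.58 (SD, n = 5), highest on replicate 2 (1.54) and between 0.04 and 0.42 elsewhere. Tgif2, a corepressor of Smads, had a mean of -0.99 ± 0.70, and Sost, the gene of sclerostin, a mean of -1.49 ± 0.93 (SD, n = 5), from which its second probe differed in sign. The adjusted p was 0.827 for all 5 (limma).

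The 2 brightest genes of each further group had means within their replicate spread. Among targets, Junb had 1.45 ± 3.51 and Acta2 0.27 ± 4.52 (SD, n = 5). Among extracellular regulators, Kcp had 0.39 ± 2.47 and Twsg1 -1.52 ± 2.72 (SD, n = 5). The mediators Foxh1 and Ski had -0.52 ± 0.97 and -0.02 ± 2.79, and the co-receptor genes Tdgf1 and Neo1 had -0.19 ± 1.85 and -0.77 ± 1.74 (SD, n = 5). The ligands Bmp8a and Gdf5 had -0.72 ± 2.39 and -1.77 ± 1.94 (SD, n = 5).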

How the data were processed

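Cells of the mouse kidney papilla were compared on 5 2-colour Agilent arrays, each holding the GFP+ and GFP- cDNA of 1 biological replicate. RNA was amplified by a global PCR protocol (SuperAmp) and 250 ng of each cDNA were labelled, per the labels' protocols; such amplification can distort the amounts of single transcripts. Agilent Feature Extraction is named in the submitters' processing notes, without a version or background correction. The deposited tables hold 2 intensities per probe on a linear scale and their log10 ratio, per the file headers. The deposited log10 ratio equalled that of the second over the first intensity within 0.001 for 78.3% to 89.1% of probes. The sources used here do not say which dye the first intensity holds.

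An offset of 50 was added before log2, which understates the ratios of dim probes, and each array was normalized by loess (span 0.3). No member value was marked by the software. A probe was above background at 3 times the negative control probe and tested if it was so in at least 1 channel on at least 3 arrays. Of 41174 non-control probes, 45 had several symbols and 6743 were unnamed here. Each of 17659 genes was represented by its brightest tested probe. Limma 3.58.1 (R 4.3.3) tested whether the mean log2 ratio differed from 0, two-sided, and p-values were adjusted by Benjamini and Hochberg's method across those genes; the step was tested on simulated data. SD is the spread over arrays, which with 5 arrays limits the precision. Each array pairs both populations, so the ratio holds the pairing. Members, lists and alternatives were chosen with earlier results of these data known. All members are named; other pathway genes were named if past the threshold, of one sign on all 5 arrays, or among the 2 brightest of their group. The effect of 18 other settings, and of 1 chosen after seeing the data, is in the closing section.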

Additional observations from a re-analysis of the deposited data

Results flagged for a closer look

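Of 30 members and 6 medians, 3 had 1 array far from the other 4 by Dixon's test, which chance gives in about 1 of 20 groups. Bmp6 had 1.98 on replicate 1 against -2.53 to -2.01 on the others. Inhba had 1.37 on replicate 1 against 0.28 to 0.54. The median of the target genes was -0.86 on replicate 5 against 0.50 to 0.80. Values are log2 ratios of GFP+ over GFP-.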

How the results depend on the processing

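Under all 19 alternatives limma called 0 genes, 0 members and 0 other pathway genes, and the lowest adjusted p of a member lay between 0.136 (sign of replicate 1 turned) and 0.989 (channels compared with no replicate block). The count of members with one sign was 8 with the sign of replicate 1 turned and 4 to 12 when 1 array was left out, the highest without replicate 1. The Smad median was 0.26 with that sign turned. The median of the extracellular regulators was -0.36 with all probes of a gene averaged, and ranged from -1.18 to -0.39 when 1 array was left out, -0.39 without replicate 4. That of the receptors ranged from -1.47 (without replicate 1) to -0.14 (without replicate 2). With 1 array left out, the median of all members ranged from -0.46 to -0.03, that of the ligands from -0.64 to 0.14, that of the Smads from 0.48 to 1.03 and that of the target genes from 0.11 to 0.59. With all probes of a gene averaged the member median was 0.21, and with no filter on dim probes the ligand median was 0.02, both on the other side of 0. The means of 8 members (Bmp7, Tgfbr1, Bmpr1a, Acvr1, Smad2, Smad5, Id3 and Id4) changed sign under at least 1 alternative. Naming probes by the file or by a RefSeq accession alone, chosen after seeing the data, put Id2 at 1.94 and gave 5 members of one sign. The cause of these shifts was not tested. Both channels were below background on at least 1 array for Bmpr1a, Acvr2a, Smad3, Id1, Id4 and Grem1, and the GFP- channel of Inhba was so on 4.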
